A study of Mus musculus with 12 samples.

Results

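The fibrillar collagens examined here are 9 genes, Col1a1, Col1a2, Col2a1, Col3a1, Col5a1, Col5a2, Col5a3, Col11a1 and Col11a2, taken by symbol out of the 27998 genes in the count matrices. Each symbol had 1 row in every matrix. The other 2 fibrillar collagen genes, Col24a1 and Col27a1, were not members and serve for comparison. The 9 genes were followed across marker-named cell types, fibroblast subsets and libraries of single-cell RNA sequencing of mouse hind limb joints.

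The arthritis model was serum transfer-induced arthritis (STIA), in which serum of arthritic K/BxN mice starts a joint inflammation that later subsides. All mice were wild-type male C57BL/6 of 8 to 10 weeks. The libraries labelled rest came from mice without serum (day 0), and the later ones from mice given 100 µl of arthritogenic serum intravenously, taken on days 7 to 9 for the label peak, on day 15 for resolving and on day 22 for resolved. There were 12 libraries, 3 for each label, and each pooled the joints of 3 animals, so replicates are pools and not single mice. The joints were digested with collagenases, live cells negative for CD45, the pan-leukocyte surface protein, were sorted, and the libraries were made with the 10x Chromium 3′ v2 kit.

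Fibrillar collagens are triple helices of 3 alpha chains that assemble into cross-striated fibrils, the scaffold that carries tension in bone, tendon, ligament, cartilage and synovium. Type I collagen, built of the chains of Col1a1 and Col1a2, is the main collagen of bone and tendon, and type III, from Col3a1 alone, mixes with it in soft and distensible tissue. Type II, from Col2a1, is the cartilage collagen. The chains of types V and XI (Col5a1, Col5a2, Col5a3, Col11a1, Col11a2) start fibrils and set their diameter, type V mostly inside type I fibrils and type XI mostly inside type II fibrils. In the synovium, fibroblasts of the lining secrete joint lubricant and those of the sublining lay down the connective tissue beneath.

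The members lie on 8 chromosomes of GRCm38. Only Col3a1 (chr1:45311538-45349706, + strand) and Col5a2 (chr1:45374321-45503282, - strand) are neighbours, 24614 bases apart with 0 genes between them. Col1a1 lies at chr11:94936224-94953042 (+), Col1a2 at chr6:4504814-4541544 (+), Col2a1 at chr15:97975602-98004695 (-), Col5a1 at chr2:27886425-28039514 (+), Col5a3 at chr9:20770050-20815067 (-), Col11a1 at chr3:114030540-114220718 (+) and Col11a2 at chr17:34039437-34066685 (+). Predicted gene models overlap Col1a2, Col3a1 and Col5a2 on the same strand, and how the counting divided reads between them is uncertain.

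RefSeq's promoter table for GRCm38.p6 held 6 of the 9 members (Col1a2, Col3a1, Col5a1, Col5a3, Col11a1 and Col11a2), each with 250 bases before and 50 bases after the RefSeq start. Of these, 4 are shown because their genes take different places in the comparisons that follow: Col1a2 was highest in osteoblasts, Col3a1 was shared by fibroblasts and osteoblasts, Col5a3 was low in bone and tendon cells, and Col11a2 was almost limited to chondrocytes. Capitals mark CCAAT, its reverse ATTGG and TATAAA, and all run 5′ to 3′ on the gene's strand. They lie at chr6:4505368-4505667 (Col1a2, +), chr1:45311288-45311587 (Col3a1, +), chr9:20815018-20815317 (Col5a3, -) and chr17:34038888-34039187 (Col11a2, +).
Col1a2: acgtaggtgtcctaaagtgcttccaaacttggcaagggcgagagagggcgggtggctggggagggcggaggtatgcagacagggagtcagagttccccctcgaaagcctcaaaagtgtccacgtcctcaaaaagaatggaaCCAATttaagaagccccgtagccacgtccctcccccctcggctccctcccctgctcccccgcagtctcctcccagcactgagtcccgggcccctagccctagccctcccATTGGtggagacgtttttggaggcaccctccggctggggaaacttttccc
Col3a1: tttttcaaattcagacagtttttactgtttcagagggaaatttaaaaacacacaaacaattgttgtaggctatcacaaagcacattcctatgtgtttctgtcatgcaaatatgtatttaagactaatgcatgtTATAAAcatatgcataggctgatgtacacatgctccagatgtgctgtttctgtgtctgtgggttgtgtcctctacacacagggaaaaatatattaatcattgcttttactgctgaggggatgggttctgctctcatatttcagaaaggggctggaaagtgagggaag
Col5a3: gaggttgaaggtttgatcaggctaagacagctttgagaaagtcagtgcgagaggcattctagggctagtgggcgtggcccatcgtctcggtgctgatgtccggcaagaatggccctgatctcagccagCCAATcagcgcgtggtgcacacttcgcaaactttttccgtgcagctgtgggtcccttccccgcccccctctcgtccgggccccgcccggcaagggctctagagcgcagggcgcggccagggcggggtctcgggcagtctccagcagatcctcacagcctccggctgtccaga
Col11a2: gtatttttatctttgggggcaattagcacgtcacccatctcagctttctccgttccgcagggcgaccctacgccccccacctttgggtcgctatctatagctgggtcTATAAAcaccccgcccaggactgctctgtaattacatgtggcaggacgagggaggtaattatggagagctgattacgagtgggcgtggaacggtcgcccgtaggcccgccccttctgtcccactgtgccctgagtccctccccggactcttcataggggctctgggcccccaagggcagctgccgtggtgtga

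Searched on both strands, CCAAT was present in 37.4% of 32851 promoters of this length, TATAAA in 13.6% and GGGCGG in 35.7%, so none of these letters is rare. Col1a2 held CCAAT 109 bases before the start and its reverse at position 1, Col5a3 held it at -122 and Col11a1 on the reverse strand at -79. TATAAA stood at -117 in Col3a1 and at -143 in Col11a2. The GC content ranged from 37.7% (Col3a1) to 75% (Col5a1). These matches are letters in a window and were not tied to any level.

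The filters on genes and UMIs (unique molecular identifiers, each standing for 1 captured RNA molecule) left 20060 of 21042 cells, 1227 to 2747 per library, with 7468914 to 16566202 UMIs per library. The median of UMIs per deposited cell was 5358 in all 12 libraries alike, which no step in the methods accounts for. No barcode sequence was shared between libraries. By overall expression in fibroblasts, the library nearest to each library never had its label (0 of 12) and always had one of the other barcode suffixes of the same run of 3 (12 of 12; runs 1 to 3, 4 to 6, 7 to 9 and 10 to 12). Each run lacks 1 label. These runs were noticed in these same data, and what they are is not stated, so several results are also given within them.

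The cells formed 24 clusters, which were named from markers, with all members and the collagen-related gene lists kept out of the genes that were clustered and out of the markers. Member levels therefore took no direct part in drawing the types, although genes that follow them closely did. Names stand for cells that resemble a type: 11320 fibroblasts (56.4% of cells), 2217 tenocytes, 1769 vascular endothelial cells, 1425 osteoblasts, 655 perivascular cells, 591 proliferating cells that also carried all 7 fibroblast markers, 304 chondrocytes, 267 muscle, 186 lymphatic endothelial, 112 immune, 108 Schwann and 61 erythroid cells, and 1045 unnamed cells in 2 clusters. UMIs were summed per class and library where at least 10 cells were present, and a level is the gene's UMIs scaled to a total of 1000000 (CPM) in that sum. In an RNA level of this kind, more cells of a strongly expressing kind within a class and more RNA per cell cannot be told apart.

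Cell types were compared with fibroblasts by edgeR's quasi-likelihood test with the library as a block and Benjamini-Hochberg adjustment over 10806 genes, and calling a gene took both an adjusted p-value below 0.05 and a difference of more than 0.5 on the log2 scale in either direction. Of 99 comparisons (9 members in 11 types), 68 were past that threshold, beside 32.1% of all gene by type tests. The types fell into a connective tissue set with high type I and III levels, chondrocytes with their own set, and vascular, nerve and blood cells in which most members were low.

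Type I collagen was highest in osteoblasts, the cells that lay down bone. Col1a1 stood at 13820 CPM in the lowest, 18253 in the median and 28881 in the highest osteoblast library, against 2812, 7302 and 16406 CPM in fibroblasts and 6243, 7910 and 15810 in tenocytes. Each library had more Col1a1 in its osteoblasts than in its fibroblasts (12 of 12), although the ranges over libraries overlapped. Osteoblasts were higher by 1.40 on the log2 scale (SE 0.33, adjusted p = 0.000255). Col1a2, which supplies the second chain of type I, followed with 1.15 (SE 0.26, adjusted p = 0.000176, 12 of 12 libraries) from 17256 ± 3887 CPM (SD, n = 12) in osteoblasts and 7996 ± 4118 in fibroblasts. Of the 9 members, 5 were higher and 1 lower in osteoblasts, beside 13.3% and 16.4% of all genes tested.

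The size of the osteoblast difference depended on the run. Col1a1 was 4.89-fold and 5.17-fold higher in osteoblasts in suffixes 1 to 3 and 10 to 12, and 1.57-fold and 1.69-fold higher in suffixes 4 to 6 and 7 to 9. Osteoblast Col1a1 itself averaged 17128, 18838, 25447 and 17116 CPM in the 4 runs in order, so most of the change in the ratio was in the fibroblasts. Direction held in all 3 libraries of every run.

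Col3a1, the type III chain, was not told apart between osteoblasts and fibroblasts: 4630, 7609 and 9400 CPM (lowest, median, highest) against 2981, 7186 and 12837, a log2 fold change of 0.10 (adjusted p = 0.809), with osteoblasts higher in 6 of 12 libraries. The pooled value hid a split, since osteoblasts were higher in all libraries of suffixes 1 to 3 (1.85-fold) and 10 to 12 (1.87-fold) and lower in all of suffixes 4 to 6 (0.697-fold) and 7 to 9. Col5a1 and Col5a2, the 2 chains of the common form of type V, gave the same picture, with log2 fold changes of 0.13 and 0.26 (adjusted p = 0.609 and 0.340) and osteoblast to fibroblast ratios on both sides of 1 among the runs. For Col5a1 these were 2.00, 0.638, 0.787 and 1.98.

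The tenocyte class joined a cluster of 1389 cells that passed for 6 tenocyte markers and another of 828 cells that passed for 4, the minimum. The latter, led by Col8a1, also carried all 7 fibroblast markers. In tenocytes, the cells of tendon and ligament, the type I chains did not pass the test against fibroblasts and the type III and V chains were lower. Col1a1 differed by 0.37 on the log2 scale (adjusted p = 0.412) and Col1a2 by 0.36 (adjusted p = 0.306). As in osteoblasts, pooling hid a split: the tenocyte to fibroblast ratio of Col1a1 was 2.09 in suffixes 1 to 3 and 2.30 in 10 to 12, with all libraries higher, and 0.634 and 0.890 in the runs between. For Col1a2 the ratios were 1.63, 0.881, 0.992 and 1.97 in the 4 runs in order. Col3a1 stood at 1961, 2401 and 4796 CPM, 1.17 lower than in fibroblasts on the log2 scale (SE 0.28, adjusted p = 0.000436), with 2 of 12 libraries the other way. Here too the last run differed, with a tenocyte to fibroblast ratio of 1.03 for Col3a1 in suffixes 10 to 12 and 0.217 to 0.501 in the others. Col5a1 (-1.31, SE 0.19) and Col5a2 (-0.70, SE 0.21, adjusted p = 0.0056) were also lower. Their ratios in suffixes 10 to 12 were 0.881 and 1.31, and for Col5a2 all 3 libraries of that run were higher in tenocytes, against the pooled direction. In all, 2 members were higher and 4 lower, beside 10.9% and 11.8% of genes. Of 19 immediate early genes, which respond to tissue dissociation, 12 were higher and 0 lower in tenocytes (median log2 fold change 0.73), and their part in the member values was not tested.

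Because total levels moved between runs, the balance of type III and type I was also taken within each library, as Col3a1 UMIs for each Col1a1 UMI. This ratio compares classes and not the abundance of the 2 messages. It averaged 0.33 in tenocytes, 0.394 in osteoblasts (range 0.255 to 0.534) and 0.977 in fibroblasts (0.605 to 1.38). Lining fibroblasts averaged 1.51 (0.726 to 2.51) and sublining fibroblasts were close to them at 1.44 (1.05 to 1.96). In perivascular cells the mean was 1.65 (0.922 to 2.74, 11 libraries with enough UMIs). The osteoblast range lay below the fibroblast range. The ratio of the 2 type I chains, Col1a1 to Col1a2, was 1.14 in osteoblasts and held between 1.04 and 1.19 over the 12 libraries.

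**Figure D1:**
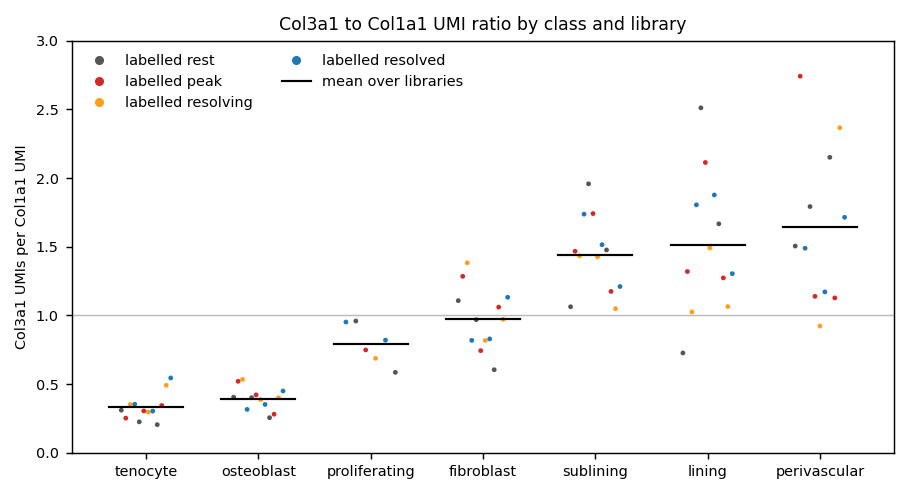
Col3a1 UMIs per Col1a1 UMI (vertical axis, a ratio) in 7 cell classes (horizontal axis), each point being 1 library coloured by its label. Tenocytes and osteoblasts (mean 0.394) sit low. Lining, sublining and perivascular cells sit high, and lining and perivascular cells spread widely.

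Cartilage collagen was concentrated in chondrocytes. Col2a1 stood at 24395, 29450 and 41279 CPM (lowest, median, highest of 8 libraries) in chondrocytes and at 0.215, 21.2 and 62.5 CPM in the fibroblasts of 12 libraries. Chondrocytes were 1.52% of the cells and held 95.1% of all Col2a1 UMIs, 90.4% of Col11a2 and 53.2% of Col11a1. The log2 fold changes against fibroblasts were 10.52 (SE 0.51) for Col2a1, 9.99 (SE 0.34) for Col11a2 and 6.17 (SE 0.35) for Col11a1, each higher in 8 of 8 libraries. Col11a1 UMIs were present in 304 of 304 chondrocytes. These cells also had the most UMIs of any named class (median 12602), and removing the cells with the highest doublet scores left the 3 values at 10.83, 10.50 and 7.00.

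The other members were lower in chondrocytes, all in 0 of 8 libraries higher: Col3a1 by a log2 fold change of -4.35 (SE 0.38), Col5a3 of -3.70, Col1a1 of -3.21 (SE 0.43), Col5a2 of -2.79, Col1a2 of -2.72 and Col5a1 of -2.49. All 9 members were thus called, beside 46.5% of genes (19.7% higher, 26.8% lower). Within chondrocytes, Col1a1 ranged from 32.1 CPM in resolving 1 to 4340 CPM in resolving 2. Col11a1 per Col2a1 UMI stayed between 0.160 and 0.265.

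The type XI chains were not limited to cartilage. Col11a1 stood at 275, 503 and 786 CPM in osteoblasts, 118, 199 and 412 in tenocytes and 9.49, 52.2 and 491 in fibroblasts, and was called higher in osteoblasts (log2 fold change 2.55, SE 0.30, 11 of 12 libraries) and in tenocytes (1.31, SE 0.29, adjusted p = 0.00013, 11 of 12). A Col11a1 UMI was found in 59.3% of osteoblasts, 45.6% of tenocytes and 20.8% of fibroblasts, against 1.9% of vascular endothelial cells, which serve as the measure of background and had a median of 3176 UMIs. After thinning to 2000 UMIs per cell, which leaves out cells under 2000, the first 3 shares were 40.3%, 26.4% and 12.3%. In order by edgeR's quasi-likelihood test, chondrocytes exceeded osteoblasts (3.62 on the log2 scale, adjusted p = 1.15e-17) and osteoblasts exceeded tenocytes (1.24, adjusted p = 0.000185). The same fit put tenocytes above proliferating cells (1.32, adjusted p = 0.00268), which were summed in suffixes 4 to 9 alone. That value also draws on tenocytes of the other runs, and the order within the shared libraries was not tested.

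The osteoblast difference in Col11a1 was 38.6-fold in suffixes 1 to 3 and 28.6-fold in 10 to 12, and 2.79-fold and 1.89-fold in the runs between. For tenocytes the ratio in suffixes 7 to 9 was 0.961, so the direction was lost there. Without the library block the tenocyte call was also lost (0.70, adjusted p = 0.120).

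Col11a2 was much lower outside cartilage, with 0 to 237 CPM in osteoblasts, 5.19 to 66.5 in tenocytes and 0.537 to 8.20 in fibroblasts. It was called higher in both osteoblasts (3.99, SE 0.31) and tenocytes (2.90, SE 0.34), yet only 5.5% and 6.0% of those cells had a UMI, against 0.8% of vascular endothelial cells. Col2a1 was called higher in osteoblasts (1.74, SE 0.42, adjusted p = 0.000313) at 3.21, 29.6 and 776 CPM. That call was lost without resolving replicate 2 (0.97, adjusted p = 0.053). A Col2a1 UMI was found in 9.2% of fibroblasts (95% Wilson interval 8.67 to 9.73) and 7.2% of the shallower vascular endothelial cells (6.07 to 8.48). With cells thinned to 2000 UMIs, and those under 2000 left out, the shares were 2.9% and 3.8%, so the fibroblast share is not read as above background.

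**Figure D2:**
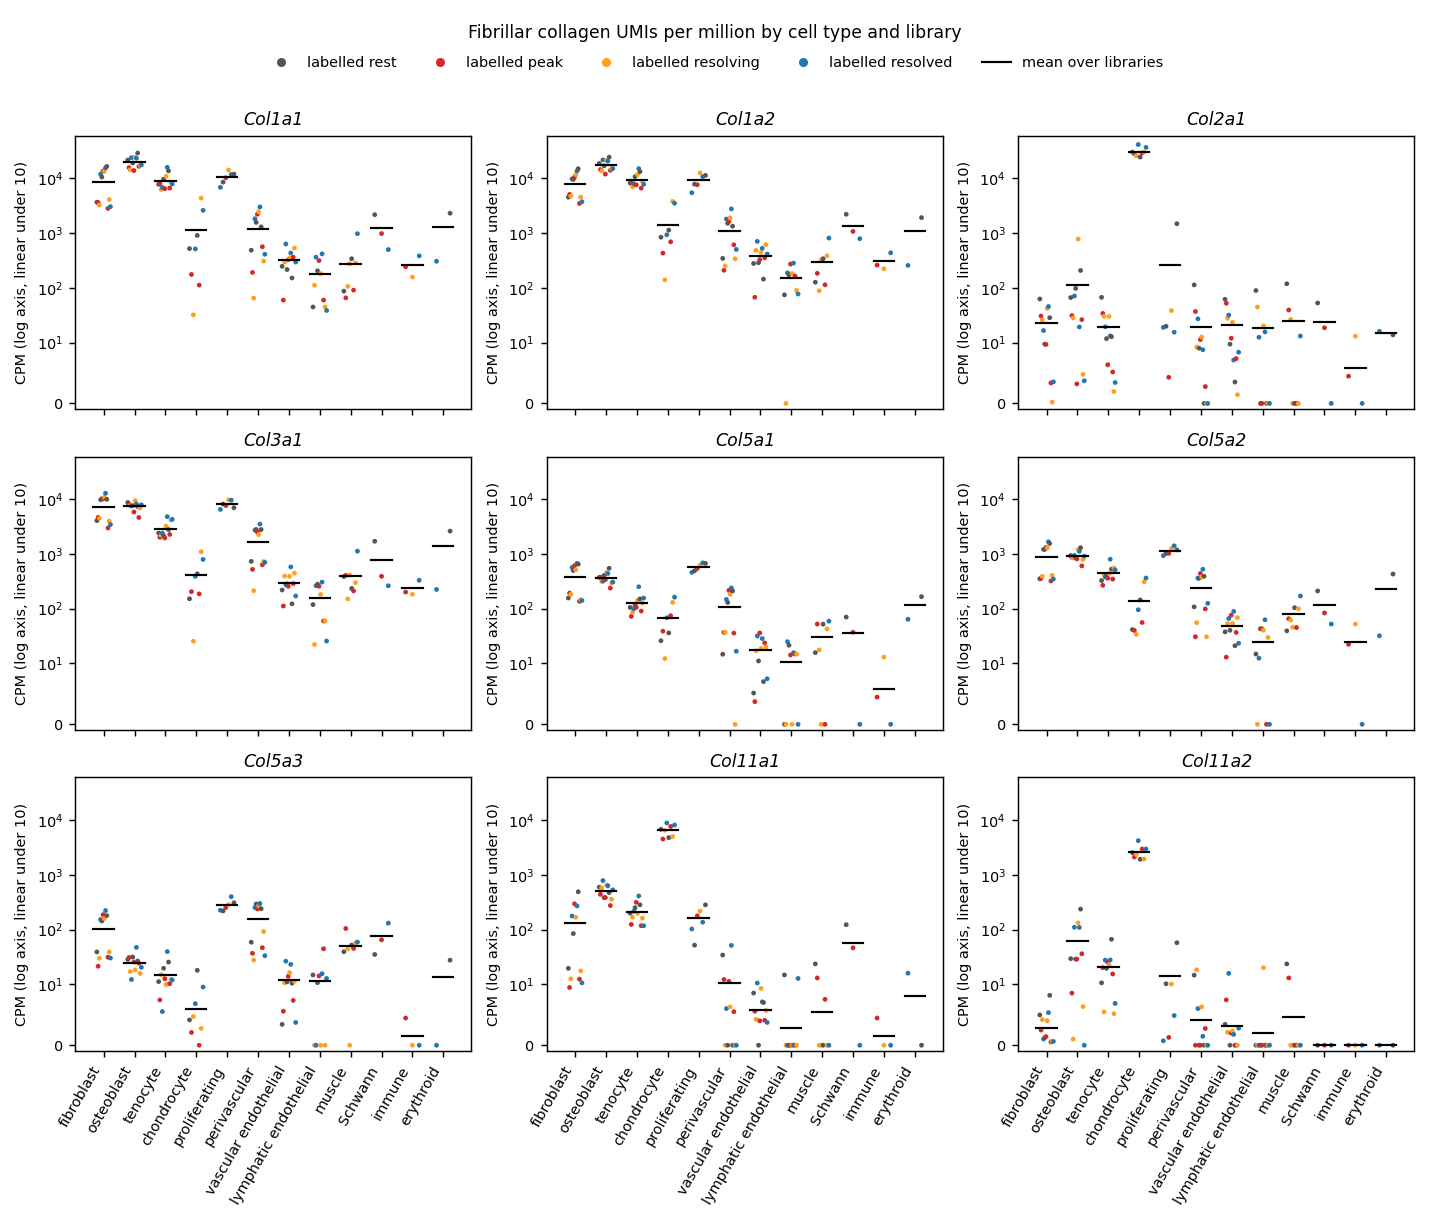
Level of each of the 9 members (vertical axis, CPM on a symmetric log scale, 1 panel per gene) in the 12 named classes (horizontal axis), with points for libraries coloured by label and a line at the mean. Col2a1 and Col11a2 stand high in chondrocytes alone, type I is high in osteoblasts, tenocytes, proliferating cells and fibroblasts, and Col5a3 is lower in osteoblasts, tenocytes, chondrocytes and endothelial cells than in fibroblasts and perivascular cells.

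Col5a3 codes for a rarer chain of type V and took a course of its own. It stood at 219, 269 and 400 CPM in proliferating cells (6 libraries), 27.8, 165 and 300 in perivascular cells, 21.5, 91.5 and 223 in fibroblasts, 12.3 to 47.4 in osteoblasts and 5.53, 12.2 and 39.7 in tenocytes. It was the 1 member called lower in osteoblasts (-1.62, SE 0.20, 1 of 12 libraries higher), and the fall was larger in tenocytes (-2.39, SE 0.20, 0 of 12). Cells with a UMI made up 32.1% of fibroblasts, 10.9% of osteoblasts, 6.2% of tenocytes and 3.3% of vascular endothelial cells. These directions held in every run, from 0.144 to 0.846 for osteoblasts and from 0.0783 to 0.373 for tenocytes.

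Perivascular cells, the pericytes and smooth muscle of vessel walls, were higher than fibroblasts in Col5a3 (0.52, SE 0.18, adjusted p = 0.0132, 11 of 12 libraries; 1.36-fold to 1.72-fold within runs) while 6 other members were lower, from Col5a1 (-1.94) to Col1a2 (-3.21). Beside this 1 higher and 6 lower stand 16.8% and 22.4% of genes. The value lies just past the threshold, and the call was lost under 8 other settings, among them removal of doublets (0.34). In proliferating cells, of which only the libraries of suffixes 4 to 9 held the 10 needed, Col5a3 was higher in 6 of 6 libraries (0.81, SE 0.19, adjusted p = 0.000325). The only other member called there, making 2 of 9 higher beside 10.4% of genes, was Col2a1 (1.45, 3 of 6 libraries), which rests on rest replicate 3 with 1478 CPM and is -0.60 without it. Proliferating cells had a median of 12378 UMIs and 71.7% had a Col5a3 UMI, 37.6% after thinning.

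In the remaining types most members were lower than in fibroblasts. Vascular endothelial cells were lower than fibroblasts in 7 members, by -3.19 to -4.76 on the log2 scale, beside 26.3% of genes lower. A Col1a1 UMI was still present in 34.3% of them and a Col1a2 UMI in 39.3%. Lymphatic endothelial cells were lower in 7 members (beside 26.4% of genes), immune cells in 7 (18.7%), muscle cells in 6 (26.8%), erythroid cells in 6 (10.1%) and Schwann cells in 5 (10.8%). Erythroid cells had sums in 2 libraries only, and immune and Schwann cells in 3 each. No member was called higher in these types.

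As a share of all UMIs, the 9 members made up 4.64% in osteoblasts (range over libraries 3.31 to 6.33), 4.30% in chondrocytes, 2.52% in fibroblasts (0.977 to 4.48), 2.21% in tenocytes and 0.11% in vascular endothelial cells. Proliferating cells averaged 3.03% over their 6 libraries, where fibroblasts averaged 3.82% and stood higher in 5. Osteoblasts and chondrocytes reached like shares with different genes.

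The 3 genes whose class means resembled each member most were found by Pearson's r of log2(CPM + 10) over 12 classes among 3137 genes. They are a description over classes that share libraries, with no test. Col1a1 and Col1a2 came first for each other (r = 0.992), Col1a1 then with Thbs2 (0.979) and Tmem119 (0.974), and Col1a2 with Tmem119 (0.962) and Igsf10 (0.960). Col3a1 was nearest to Col5a2 (0.977), its neighbour on chromosome 1, then Col1a1 (0.961) and Itgb5 (0.952). Col5a1 was nearest to P4ha3 (0.974), Col5a2 (0.972) and Col3a1 (0.946). Col2a1 followed Col9a1 (0.997), Col9a2 (0.993) and Hapln1 (0.991), and Col11a2 followed Mia (0.987), Hapln1 (0.986) and Prss50. For Col11a1 the nearest were Cgref1 (0.960), Fam180a (0.953) and Sec22b (0.946). Col5a3 had no close partner, with Gars (0.805), Ccl2 (0.801) and Pdha1 (0.795) first.

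Genes that build, receive and accompany these fibrils were read from lists. Of 30 tested genes of collagen biosynthesis and processing, 8 were higher and 5 lower in osteoblasts, led by Sparc (1.26), a collagen-binding matrix protein, and P3h2 (1.15), a prolyl 3-hydroxylase, against Pcolce2 (-3.76) and Colgalt2 (-2.82). In tenocytes 6 were higher and 9 lower, with P3h2 (3.20) and the cross-linking enzyme Lox (0.96) leading the rise. In chondrocytes 18 were higher and 6 lower. There Colgalt2 (3.75), a collagen galactosyltransferase, rose, and Adamts2 (-4.44), which trims the amino end of procollagen, fell. The median log2 fold changes over this list were 0.08, -0.04 and 0.93, beside -0.03, -0.05 and -0.15 over all genes tested. Among the 7 collagen receptors tested, osteoblasts were higher in 2, Itga10 (2.92) and Itga11 (1.06), and lower in 0. Of 8 fibril-associated collagens, chondrocytes were higher in 5, led by the type IX chains Col9a3 (9.89) and Col9a2 (9.84), and osteoblasts in 4, led by Col12a1 (2.54) and Col16a1 (2.28), while Col14a1 (-4.42) was lower.

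Lining and sublining fibroblasts were compared next, each named from its own markers (1146 lining cells, led by F13a1 and Prg4, and 979 sublining cells, led by Pi16). All 12 libraries held both. Of 8108 genes tested with the library as a block, 15.1% were called higher and 16.6% lower in the lining, and of the 7 members tested 1 was higher and 4 were lower.

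Type I and III messages were lower in the lining in every library. Col1a1 stood at 342, 1281 and 2702 CPM in the lining and 2141, 2784 and 7823 in the sublining (log2 fold change -1.63, SE 0.16, adjusted p = 1.2e-09). Col1a2 had the largest difference, with 459, 1086 and 2200 CPM against 3352, 4388 and 8728 (-2.27, SE 0.13, adjusted p = 2.1e-14), and its ranges did not overlap. Col3a1 stood at 427, 2154 and 4956 against 2516, 4596 and 11553 CPM (-1.59, SE 0.20, adjusted p = 1.1e-07). Col5a1 was lower in 11 of 12 libraries (-1.42, SE 0.19, adjusted p = 6.7e-07). In the run of suffixes 4 to 6 the differences were smallest, with lining to sublining ratios of 0.617 for Col1a1, 0.733 for Col3a1 and 1.01 for Col5a1.

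The type V chains were split between the compartments. Col5a3 was higher in the lining, at 21.9, 130 and 359 CPM against 9.51, 26.1 and 134 in the sublining (1.60, SE 0.22, adjusted p = 6.8e-07, 11 of 12 libraries), and its UMIs were found in 44.4% of lining cells (95% Wilson interval 41.6 to 47.3) and 11.2% of sublining cells (9.41 to 13.4). Lining cells were deeper (median 7854 against 5181 UMIs), and after thinning to 2000 UMIs the shares were 22.9% and 4.14%. The ratio was 1.26 in suffixes 1 to 3 and 10.9 in 4 to 6, with the other runs between. Col5a2 did not pass the test (95.4, 479 and 1031 CPM against 239, 316 and 904; -0.12, SE 0.20, adjusted p = 0.682), and its direction changed with the run, from 0.391 to 2.47. Col11a1 and Col11a2 were too low to be tested, with means of 8.30 and 1.58 CPM in the lining.

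**Figure D3:**
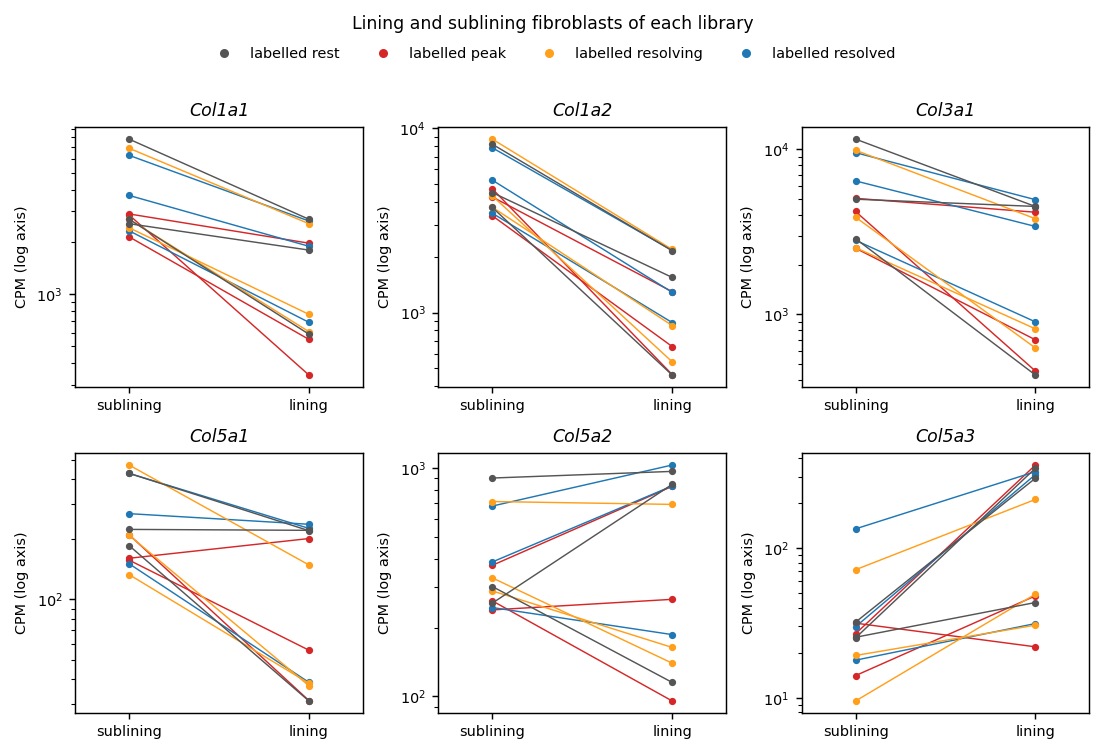
Levels of 6 members (vertical axis, CPM on a log scale) in lining and sublining fibroblasts (horizontal axis), with 1 line per library. The lines of Col1a1, Col1a2 and Col3a1 rise to the sublining in all 12 libraries, those of Col5a3 fall in 11, and those of Col5a2 run both ways.

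Around the members, 9 of 30 biosynthesis genes were higher and 9 lower in the lining (median log2 fold change 0.03, beside 0.01 over all genes), with Colgalt2 (2.31) and Adamts14 (2.18), a procollagen peptidase, at one end and Pcolce2 (-2.43) and Adamts2 (-2.35) at the other. Mrc2 (1.51), an endocytic collagen receptor, was higher and Itga11 (-2.04), a subunit of a collagen-binding integrin, lower. Of the fibril-associated collagens, Col22a1 (8.24) was higher and Col14a1 (-4.05) lower. Of 18 immediate early genes, 12 were lower and 1 was higher in the lining, and the part of this in the member values was not tested.

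Within fibroblasts the members also differed among the 9 clusters, which are given as levels with no test. Libraries with under 10 cells of a cluster were left out, so the means cover different libraries. Col1a1 averaged 19039 CPM over libraries in the cluster led by C1qtnf3 (1862 cells), 13781 in the one led by Cxcl5 (1414 cells), 9427 in the one led by Hp and Acp5, 5968 in the Ifi205 cluster, 5610 in the Inmt cluster, 3965 in the Scg3 cluster, 2550 in the Ccl11 cluster and 1424 in the lining. Col11a1 was 395 CPM in the C1qtnf3 and 217 in the Cxcl5 cluster and at most 24 elsewhere. Col5a3 was highest in the Hp cluster (335 CPM), then the Cxcl5 cluster (217) and the lining (172). Of the 1082 cells of the Hp cluster, 48.9% came from 1 library, and whether its Col5a3 level goes with the run was not tested. The C1qtnf3 cluster carried all 7 fibroblast markers and also passed for 3 tenocyte markers. It made up 34% to 46% of fibroblasts in suffixes 7 to 9, and the Cxcl5 cluster 41% to 48% in suffixes 4 to 6, so cluster and run move together.

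**Figure D4:**
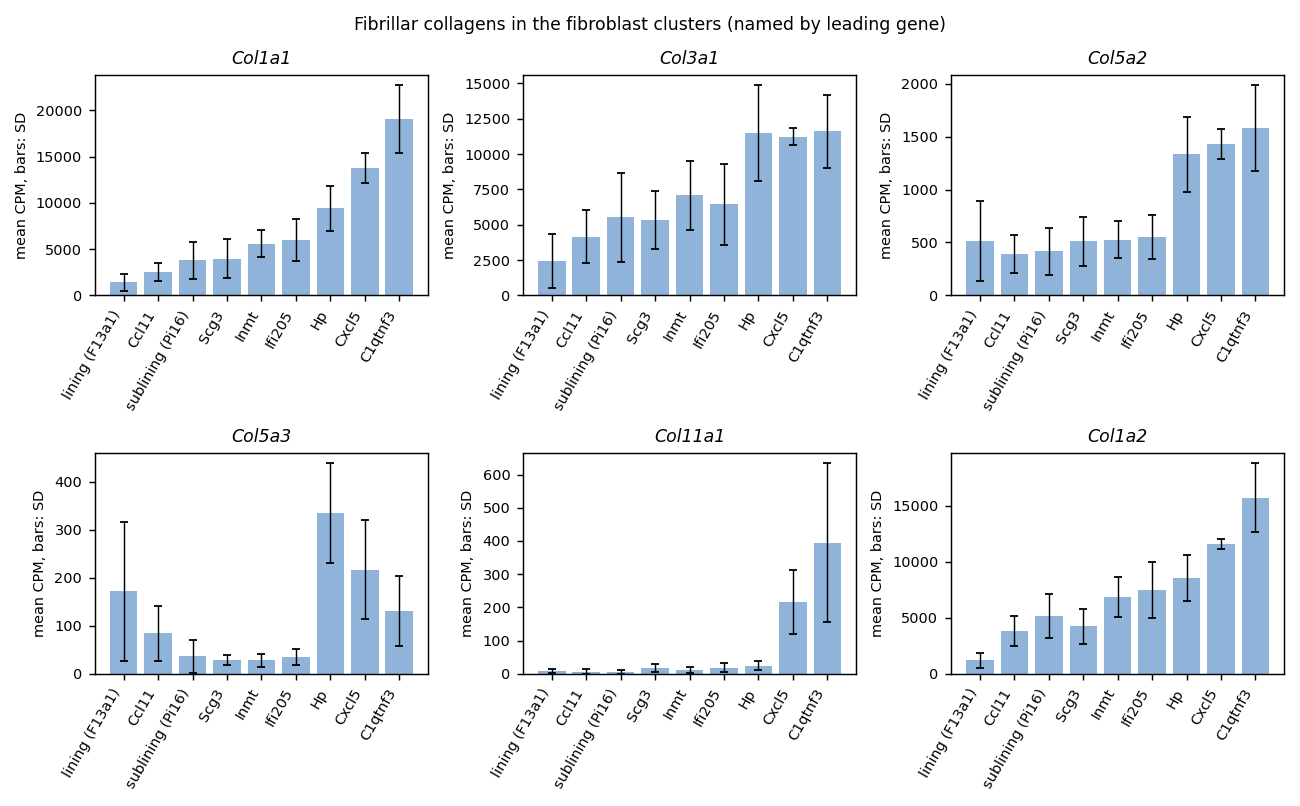
Mean level (bars, CPM on a linear axis from 0; error bars, SD over libraries) of 6 members in the 9 fibroblast clusters, each named by its leading gene. Libraries with under 10 cells of a cluster are left out, so the bars cover different libraries. Col1a1 and Col11a1 peak in the C1qtnf3 cluster (Col1a1 19039 CPM), and Col5a3 in the Hp cluster.

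The arthritis labels were compared in fibroblasts, each against rest, over all 12 libraries and 11781 genes. The 4 labels overlapped for every member. Col1a1 stood at 3655, 10517 and 16406 CPM at rest, 2812, 3619 and 13600 at peak, 3243, 4086 and 13392 at resolving and 3033, 11880 and 15484 at resolved, with log2 fold changes of -0.60, -0.56 and -0.03 (SE 0.81 each). For Col3a1 they were -0.44, -0.32 and 0.09 (SE 0.60 to 0.61). By edgeR's quasi-likelihood test 0 of the 9 members and 0% of all genes were called at any stage. At an unadjusted p under 0.05 stood 86, 89 and 35 genes at peak, resolving and resolved and 0 members, and DESeq2 called 0 members as well. With the run of suffixes as a block the count was again 0 members. The shares of all genes called by DESeq2 and with that block are not given here, so these counts are not read as particular to the members. In the fit without a block (SE 0.81), only a change of several-fold in Col1a1 could have passed at this spread.

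The share of all fibroblast UMIs in the 9 members was 2.97% ± 1.58 at rest, 2.01% ± 1.44 at peak, 2.15% ± 1.45 at resolving and 2.97% ± 1.74 at resolved (SD, n = 3 each). In exact two-sided permutation tests of 3 libraries against 3, which cannot go below 0.1, the share and the 2 type I and III ratios gave p = 0.5 to 1 over 9 tests.

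In the other classes of connective tissue edgeR's quasi-likelihood test called 0 members by label. Beside this stood 0% of genes in osteoblasts (6505 tested), tenocytes (6984) and chondrocytes (3384, with 2 libraries per label). DESeq2 called 0 members as well, and its share of all genes is not given here. At an unadjusted p under 0.05, 162, 109 and 158 osteoblast genes stood at peak, resolving and resolved, among them at peak Col1a1 (-0.66), Col1a2 (-0.63), Col5a1 (-0.54) and Col5a2 (-0.50). By label, osteoblast Col1a1 averaged 23111 ± 5156 CPM at rest and 15313 ± 1364 at peak (n = 3). In chondrocytes labelled resolved, Col2a1 (0.57), Col11a2 (0.73) and Col11a1 (0.61) stood at an unadjusted p under 0.05, among 126 genes, where 53 stood at peak and 59 at resolving. In tenocytes the counts were 161, 178 and 199, with Col3a1 at resolved (0.66) among them. None of these passed adjustment.

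Fibroblast levels differed more between the barcode runs than between the labels. Every library of suffixes 4 to 9 lay above every other library for 7 of the 9 members, beside 12.4% of genes. Col1a1 was 10517 to 16406 CPM in those 6 libraries and 2812 to 4086 in the others, Col3a1 9723 to 12837 against 2981 to 4650, Col5a1 498 to 672 against 136 to 193, and Col5a3 144 to 223 against 21.5 to 39.1. Col11a1 stood at 84.6 to 491 against 9.49 to 19.7 CPM. Col2a1 (9.69 to 45.5 against 0.215 to 62.5) and Col11a2 overlapped. The SD of Col1a1 was 5632 to 6407 within labels and 228 to 1545 within runs. Each label had libraries in both sets.

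**Figure D5:**
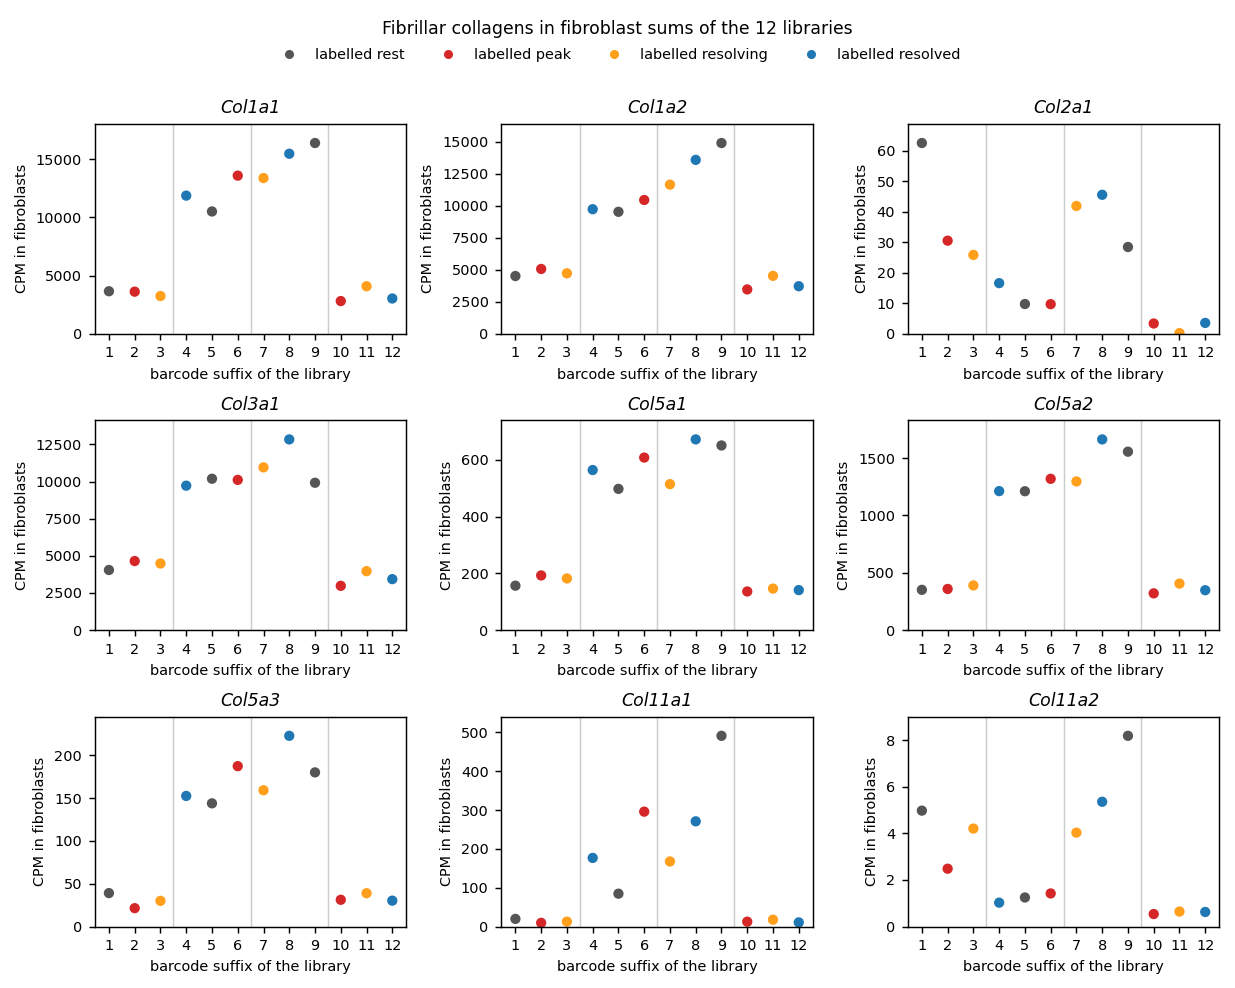
Level of each member in fibroblasts (vertical axis, CPM) by barcode suffix 1 to 12 (horizontal axis), coloured by label, with grey lines between the runs of 3. For 7 members the 6 libraries of suffixes 4 to 9 stand above the other 6, whatever their label.

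Against suffixes 1 to 3, 7 members were higher and 2 lower in suffixes 4 to 6 (beside 17.2% and 18.5% of genes) and 7 higher in suffixes 7 to 9 (beside 14.2%). The log2 fold changes in suffixes 4 to 6 were 1.83 (SE 0.14) for Col1a1, 1.11 for Col1a2, 1.24 for Col3a1, 1.70 for Col5a1, 1.82 for Col5a2, 2.48 (SE 0.18) for Col5a3 and 3.79 (SE 0.48) for Col11a1. Those in suffixes 7 to 9 were 2.11, 1.49, 1.36, 1.79, 2.04, 2.65 and 4.48 in the same order. In suffixes 10 to 12 only Col2a1 (-3.89, SE 0.47) and Col11a2 (-2.58, SE 0.44) were called, both lower, beside 0.492% of genes. Over all runs the F test passed 9 of 9 members and 59.3% of genes. Since the runs were seen in these data first, these tests describe them and are no independent evidence.

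The runs were also compared inside the lining and inside the sublining. Lining Col3a1 was 427 to 624 CPM in suffixes 1 to 3, 3409 to 4510 in 4 to 6, 3798 to 4956 in 7 to 9 and 699 to 898 in 10 to 12, and lining Col5a3 was 21.9 to 43.3, 293 to 359, 211 to 342 and 31.3 to 49.2. For Col1a1 in the sublining, suffixes 4 to 6 overlapped suffixes 1 to 3, and suffixes 7 to 9 stood above both. In the 4 runs in order its levels were 2703 to 2864, 2548 to 3708, 6309 to 7823 and 2141 to 2416 CPM. The 9 members together did not overlap in this way. Their share of sublining UMIs was 0.990% to 1.23%, 1.25% to 1.61%, 2.50% to 2.89% and 0.842% to 0.911% in the 4 runs. Sublining Col5a3 was 19.2 to 31.5, 26.8 to 32.0, 25.1 to 134 and 9.51 to 17.8 CPM. With the C1qtnf3 cluster left out, an alternative chosen after seeing the data, the fold changes of suffixes 7 to 9 fell to 1.25 for Col1a1, 0.75 for Col1a2 and 1.75 for Col11a1, and stood at 3.08 for Col5a3. All stayed past the threshold.

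Other genes moved with the runs, and their part in the member levels was not tested. Of 33 biosynthesis genes, 23 were higher and 3 lower in suffixes 4 to 6 (median log2 fold change 0.82, beside -0.02 over all genes), led by P3h2 (2.60) and Lox (2.46). In suffixes 7 to 9, 20 were higher, led by Adamts14 (2.58) and the lysyl hydroxylase Plod2 (2.01), and 3 were lower. The 7 fibroblast markers together stood at median levels of 60921, 18298, 20333 and 51105 CPM in the 4 runs, the tenocyte markers at 327, 1192, 2788 and 795, the chondrocyte markers at 70.7, 252, 274 and 71.8, the lining markers at 19191, 7086, 5400 and 14316 and the immediate early genes at 20098, 13006, 14817 and 21788. The balance of the members shifted as well: Col3a1 per Col1a1 UMI was 1.26, 0.844, 0.751 and 1.05 in the 4 runs, and Col1a1 per Col1a2 was 0.737, 1.21, 1.13 and 0.843.

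Hk2 codes for hexokinase 2, which starts glycolysis and is the gene the study followed in synovial fibroblasts. Fibroblasts with an Hk2 UMI (5393 cells) were compared with those without (5927 cells), paired within the 12 libraries over 11307 genes. Col1a1 stood at 2757, 7969 and 15484 CPM in Hk2-positive and at 2701, 6392 and 17665 in Hk2-negative cells, and the ranges of all members overlapped almost fully. By the threshold 0 of 9 members were called, beside 6.55% of genes.

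At an adjusted p under 0.05 alone, 7 of 9 members were higher in Hk2-positive cells, beside 14.7% of genes higher, all by small amounts: Col5a3 0.31 (SE 0.08), Col5a1 0.25, Col1a2 0.25, Col3a1 0.22, Col5a2 0.21, Col1a1 0.17 (SE 0.06, adjusted p = 0.0413) and Col2a1 0.43. Only 6 to 10 of 12 libraries had the direction of these values. Hk2-positive cells were deeper (median 6307 against 5503 UMIs). Cells of at least 2000 UMIs were also thinned to 2000, and Hk2 status was called again on the thinned counts. The 7 values then lay between -0.07 and 0.23 and none had an adjusted p under 0.05, while Col11a1 was lower (-0.40, adjusted p = 0.031). Since cells changed group in that fit, it does not set the same groups side by side at equal depth. DESeq2 also called 0 past the threshold. Within runs Col1a1 ratios were 0.944, 1.19, 0.883 and 1.18. Of 18 immediate early genes, 4 were called higher, led by Fosb (0.78) and Ier3 (0.72), and of 33 biosynthesis genes 0 were called.

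Within Hk2-positive fibroblasts, the labels peak, resolving and resolved against rest called 0 members and 0% of 10600 genes by edgeR's quasi-likelihood test, with 88, 144 and 88 genes at an unadjusted p under 0.05. The Col1a1 log2 fold changes were -0.54, -0.52 and 0.10. The difference between Hk2-positive and Hk2-negative cells was also tested for a change with label, and 0 of 9 members passed, beside 0.00884% of genes. At an unadjusted p under 0.05 stood 272 genes and 1 member, Col2a1.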

How the data were processed

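The data were single-cell UMI counts of 12 libraries. The authors aligned reads to mm10 with Cell Ranger and deposited whole-number counts per gene and cell, from before their filters. The limits on genes (over 500, under 5000) and UMIs (over 500 and below each library's own maximum) were applied here as the paper's methods state them, and left 20060 cells, fewer than the number that the study states. Counts were scaled to 10000 per cell, and 2000 variable genes, 30 principal components, 20 neighbours and Leiden resolution 1 (seed 1) gave clusters in scanpy 1.11.5, leidenalg 0.10.2 and Python 3.11.15, with the members, Hk2 and the collagen lists left out. A cluster was named when 4 markers or more reached 20% of its cells and were at least 1 higher on the log2 scale than elsewhere, and counted as fibroblast with 5 of 7 fibroblast markers in 30% of cells, limits set after the clusters were seen. Scrublet called 0.279% of cells, so doublets were not removed except in an alternative that dropped the 6% with the highest scores.

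Counts were summed per library and class (10 cells or more), normalized by TMM and tested two-sided in edgeR 4.0.16 (R 4.3.3) by the quasi-likelihood F test with Benjamini-Hochberg adjustment. The SE is the log2 fold change over the square root of F. Type, subset and Hk2 comparisons had the library as a block, and label comparisons had none. Replicates are libraries from pools of 3 mice. Wilson intervals (95%) cover counting error only. All 9 members, and from each list the 2 genes called with the strongest rise and fall, were to be named. The members and lists were chosen with earlier results of these data known. Replicate numbers were not taken to pair libraries (r of deviations from -0.53 to 0.65 across genes). Alternatives were DESeq2 1.42.0, other scaling factors, filters, clusterings and blocks, thinning, and leaving out each library. Positions come from GENCODE M21, promoters from RefSeq. The tests were checked on simulated counts.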

Additional observations from a re-analysis of the deposited data

Results flagged for a closer look

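In groups of 4 to 10 libraries, 10 of 36 groups had 1 library far from the rest by Dixon's criterion. Chance gives about 1 in 20 where values are normally distributed, which levels from few UMIs are not. The groups tested were the 9 members in the 4 classes with 4 to 10 libraries, all of them small classes. In the chondrocytes labelled resolved 1 (18 cells), Col11a2 was 4206 CPM, where the next library had 2966. Among proliferating cells, rest 3 stood apart for Col2a1 (1478 CPM, next 38.5) and Col11a2 (57.5 CPM, next 10.3). Among muscle cells, resolved 3 stood apart for all of Col1a1 (972 CPM, next 339), Col1a2 (808 CPM, next 384) and Col3a1 (1123 CPM, next 412), and rest 1 for Col2a1 (118 CPM, next 39.3). Among lymphatic endothelial cells, Col11a2 was 20.2 CPM in resolving 2 and 0 in the other libraries, Col2a1 was 89.2 CPM in rest 1 (next 44.5) and Col5a3 was 44.7 CPM in peak 3 (next 15.7). All cells of this class together held 1 Col11a2, 13 Col2a1 and 9 Col5a3 UMIs, so these levels rest on very few molecules.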

How the results depend on the processing

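Under other settings 2927 member values kept their side of the threshold, and their direction where called, as did 3588 with 1 library left out. Among these, 171 and 203 values called in neither fit changed sign. A call was gained by 24 and 1 values and lost by 29 and 4. Direction changed for 3 and 1 values that were called in only 1 of the fits compared. The count of members called between Hk2-positive and Hk2-negative fibroblasts, 0 in the report, was 1 with doublets removed (Col11a1, 0.55) and 2 with the Clu cluster counted as fibroblasts (Col2a1 1.43 and Col11a2 0.66), an alternative chosen after seeing the data, and 0 to 1 when each library was left out (1 without resolved replicate 2, Col2a1 0.59). The count over labels in osteoblasts, tenocytes and chondrocytes, 0 in the report, was 8 of 81 without the filter on low counts. The 8 were Col2a1 in osteoblasts at peak (-2.29), resolving (1.17) and resolved (-2.12) and in tenocytes at peak (-1.29) and resolved (-1.84), Col11a2 in osteoblasts at peak (-1.80), and Col1a1 in chondrocytes at peak (-2.18) and resolving (1.75). The direction reversed for Col11a1 in proliferating cells, 1.13 with the C1qtnf3 cluster left out, also chosen after seeing the data, for Col2a1 in tenocytes, 3.34 at Leiden resolution 0.5, for Col11a2 in suffixes 7 to 9 against 1 to 3, -1.07 with doublets removed, and for Col2a1 in proliferating cells, -0.60 without rest replicate 3 (-0.60 to 2.04 over the libraries left out). Of these, only Col2a1 in proliferating cells had been called in the report. The cause was not tested.

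Replicate numbers in the labels did not pair the libraries. With the replicate block in place of the library block, the tenocyte call of Col11a1 (0.72, adjusted p = 0.096) and the perivascular call of Col5a3 (0.47, adjusted p = 0.106) were lost, and the label comparisons in fibroblasts called 0 members. The Hk2 differences had adjusted p-values of 0.66 or more under the replicate block. Of the 99 comparisons of types, 63 to 69 were called under other settings and 61 to 68 with each library left out. Without the library block, edgeR's test no longer called erythroid Col5a1, Col5a2 and Col5a3 (adjusted p = 0.109, 0.0522 and 0.158). DESeq2 did not call erythroid Col5a1 and Col5a3 either (adjusted p = 0.197 and 0.169). Tenocyte Col5a2 lost its call with doublets removed (-0.50, adjusted p = 0.061), osteoblast Col2a1 with the Clu cluster counted as fibroblasts (0.36, adjusted p = 0.517), and lining Col5a2 gained one with at most 10% mitochondrial UMIs (-0.72) and at Leiden resolution 0.5 (-0.58). Col11a2 and Col2a1 were low outside cartilage, which limits what depth can show of them there.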

Other observations

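The cluster led by Clu (913 cells, all 12 libraries) carried markers of several classes and was left unnamed, so it entered no comparison. Its Col1a1 level was 4605 ± 2842 CPM (SD, n = 12) and its Col3a1 level 1990. Cartilage chains were present in part of it: Col2a1 averaged 533 ± 850 CPM (17.4 to 3012) with a UMI in 17.7% of cells, Col11a1 292 ± 335 CPM (19.6 to 1250) with a UMI in 40.9%, and Col11a2 32.7 CPM.

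The 2 fibrillar collagen genes outside the 9 members had distinct places. Col27a1, a cartilage-rich fibrillar collagen, was 1227 ± 199 CPM in chondrocytes (n = 8), 116 ± 31.1 in osteoblasts and 46.7 ± 20.0 in fibroblasts (n = 12), and the log2 fold changes against fibroblasts were 4.92 and 1.22. It was higher in the lining than in the sublining (1.46) and in Hk2-positive fibroblasts (0.66). Col24a1 was low everywhere, with 14.7 ± 7.12 CPM in osteoblasts against 4.22 ± 4.56 in fibroblasts (2.05, SE 0.29).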
